A study of Mus musculus with 6 samples.

Results

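The genes described here are 9 partners of the chaperone HSC70 in mouse kidney: the 6 BAG family genes Bag1 to Bag6, Hsph1 (HSP110), Hspbp1 (HspBP1) and Stub1, which encodes the ubiquitin ligase CHIP. They were taken by gene symbol from a table of 34714 genes. All 9 were found, and all 9 were among the 12174 genes with a mean of at least 1 FPKM that were tested. FPKM relate the fragments of a gene to its length and to the size of the library. RNA was measured in whole kidney of 8-week-old mice on normal chow, in 3 Hspa8 knockout and 3 wild-type (C57) samples. The labels list C57BL/6J mice with a floxed Hspa8 allele (Hspa8em1flox) and Cdh16-Cre mice, whose Cre is driven by a promoter of kidney tubule epithelium, so other cells would keep Hspa8. The labels do not give the cross of the knockout samples or which exons are flanked by loxP sites. The knockout titles name no strain, so Cre, the floxed allele and strain background cannot be told apart from the loss of Hspa8.

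HSC70 holds an unfolded stretch of a client protein tightly while ADP is bound. A nucleotide exchange factor pulls ADP out, ATP enters, and the client is let go. Most BAG proteins do this through a BAG domain that grips the ATPase domain. HSP110 is itself a distant HSP70 relative, and HspBP1 uses an armadillo-repeat fold. CHIP binds the tail of HSC70 and attaches ubiquitin to the client, so the factor that reaches HSC70 helps decide between refolding and destruction. In kidney tubules this cycle also serves the stripping of clathrin from endocytic vesicles.

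The promoters of Hsph1 and Bag3 are shown because these were the members with the widest spread between libraries. HSF1, the heat shock factor, binds inverted repeats of the letters GAA. Each sequence runs 5′ to 3′ on the gene's strand over 250 bases before the RefSeq transcript start and the first 30 bases after it (GRCm38.p6). Capitals mark 2 units (GAANNTTC or TTCNNGAA, N being any base) or 3 units, in which NN and a further GAA or TTC follow in alternation.
Hsph1, chr5:149636286-149636565, minus strand: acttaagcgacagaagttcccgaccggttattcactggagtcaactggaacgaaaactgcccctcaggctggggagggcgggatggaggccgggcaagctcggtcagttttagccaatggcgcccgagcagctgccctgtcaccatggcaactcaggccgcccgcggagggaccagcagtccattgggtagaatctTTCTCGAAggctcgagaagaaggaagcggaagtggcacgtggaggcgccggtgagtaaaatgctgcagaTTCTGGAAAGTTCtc
Bag3, chr7:128523333-128523612, plus strand: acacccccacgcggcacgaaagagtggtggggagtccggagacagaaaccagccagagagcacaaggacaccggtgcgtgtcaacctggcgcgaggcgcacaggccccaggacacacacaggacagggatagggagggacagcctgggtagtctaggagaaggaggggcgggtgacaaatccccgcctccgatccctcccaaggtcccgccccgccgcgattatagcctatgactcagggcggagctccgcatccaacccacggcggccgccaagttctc
RefSeq holds a further Hsph1 entry that overlaps this one. The Hsph1 window held TTCTCGAA at bases 54 to 47 before the start and TTCTGGAAAGTTC, a run of 3 units, at bases 16 to 28 after it. The Hsph1 gene range in RefSeq reaches 149636498, so this start and the match before it lie inside that range. The 300-base Bag3 entry (250 bases before the start to 50 after it) held GAAGTTTC at bases 43 to 50 after the start, beyond the stretch printed. The 300-base Stub1 entry held GAAGCTTC at bases 123 to 116 before the start.

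Over 32851 RefSeq promoter entries of 300 bases, 15.1% held a match of 2 units in either form and 0.603% held a match of 3 units in either form. Both strands are covered, because each 2-unit form is its own reverse complement and the 3-unit forms are reverse complements of each other. A match of 3 units contains matches of 2 units. Of the 9 members 8 had a promoter entry, 3 had at least 1 match of 2 units and 1, Hsph1, had a match of 3 units. Bag4 had no entry. A match is a run of letters and not a measured binding site.

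Hspa8, the gene named as deleted, stood at 650, 699 and 781 FPKM in knockout replicates 1, 2 and 3, against 1058, 1092 and 1318 FPKM in wild-type replicates 1, 2 and 3. The groups did not overlap, as for 10.6% of all tested genes, and the knockout mean was 61.4% of the wild-type mean. In whole tissue, fewer cells of a type and less RNA per cell cannot be told apart. The library sums ran from 381586 to 416761 FPKM in knockout and from 403895 to 417123 FPKM in wild-type samples, and depth is unknown because FPKM keep no read totals. All proximal tubule, thick ascending limb, distal convoluted tubule, principal cell, intercalated cell and podocyte markers were above 0 in every library. The same held for the skeletal muscle and adipocyte lists, so being above 0 does not tell the tissue. Along the first principal component (47.5% of the variance) the libraries lay at -10.1, 10.6 and -13.4 for knockout and at -10.4, 0.212 and 23.0 for wild-type replicates 1, 2 and 3, with wild-type replicate 3 farthest out.

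No member passed the test between knockout and wild-type kidney. Of the 9 members 0 had an adjusted p under 0.05 (limma, Benjamini-Hochberg over 12174 genes), in a comparison in which 0 genes, 0% of those tested, passed. At an unadjusted limma p under 0.05 stood 2 members, Hsph1 and Bag3, both lower in the knockout, against 629 of all tested genes (5.17%, and 4.21% in the lower direction alone). For 0 of the 9 members did the 3 knockout values lie apart from the 3 wild-type values, against 10.6% of all tested genes (8.57% in the lower direction alone). The log2 fold change was below 0 for 8 members and above 0 for 1, Bag2, against 64.9% of tested genes below 0. With library sums, medians or quantiles equalised, 50.3%, 45.9% and 49.2% of tested genes were below 0, and 7 members in each case. The median over the members was -0.09, beside -0.04 over all tested genes. The labels do not say that the replicates are separate animals, so each p-value speaks of the variation among these libraries alone, and that may be technical.

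**Figure D1:**
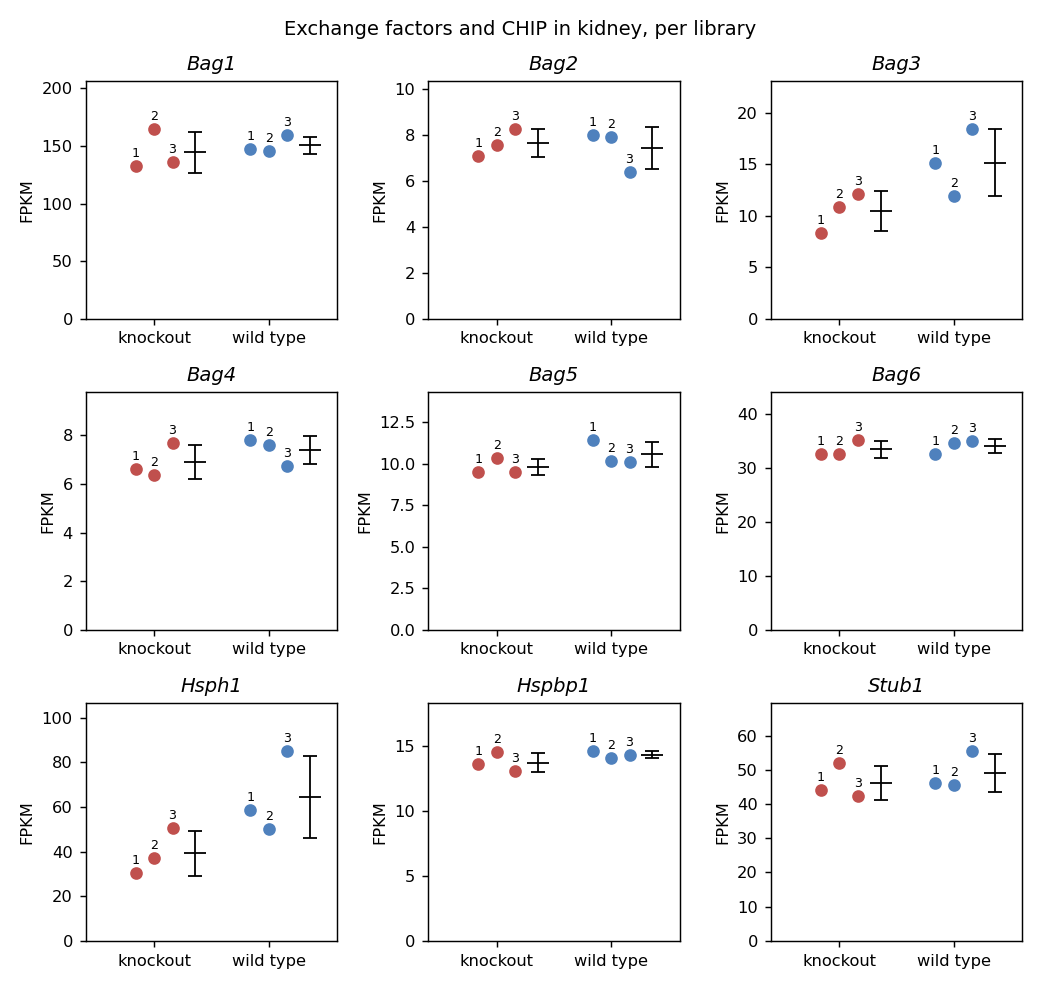
Expression of the 9 members in FPKM (vertical axes, from 0) in Hspa8 knockout (red, left) and wild-type kidney (blue, right). Each point is 1 library with its replicate number, and the bar to the right of the points is the mean ± SD (n = 3). Hsph1 ran from 30.2 to 50.3 FPKM in knockout and from 49.96 to 85.1 FPKM in wild-type libraries, so the groups met at their edges, while Bag6 ran from 32.5 to 35.2 FPKM in knockout and from 32.5 to 34.9 FPKM in wild-type libraries.

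Hsph1 had the largest difference among the members. It encodes HSP110, the exchange factor that with HSC70 and HSP40 proteins can pull apart protein aggregates (chromosome 5, 149616843 to 149636498, minus strand, GRCm38.p6). It stood at 30.2, 36.9 and 50.3 FPKM in knockout replicates 1, 2 and 3, against 58.5, 49.96 and 85.1 FPKM in wild-type replicates 1, 2 and 3. Knockout replicate 1 was the lowest library and wild-type replicate 3 the highest, and knockout replicate 3 lay just above wild-type replicate 2. The mean was 39.1 ± 10.2 FPKM in knockout and 64.5 ± 18.3 FPKM in wild-type kidney (SD, n = 3 each). On the log2(FPKM + 1) scale the fold change came to -0.70, with standard error 0.228 and 95% interval -1.23 to -0.18 (limma adjusted p = 0.914). An exact two-sided permutation test gave p = 0.2, where 0.1 is the smallest that 3 against 3 allows. Without knockout replicate 1 and wild-type replicate 3, the lowest and highest libraries, the log2 fold change was -0.32. Its limma adjusted p over 12174 genes was 1.00 and its unadjusted p 0.0924. Leaving out these extremes must shrink the difference, so the smaller value is no test of it.

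Bag3 was the other member with a difference of that kind. BAG3 carries clients of HSC70 and of the small heat shock protein HSPB8 into selective autophagy (chromosome 7, 128523583 to 128546981, plus strand). It stood at 8.37, 10.8 and 12.2 FPKM in knockout replicates 1, 2 and 3, against 15.1, 11.9 and 18.5 FPKM in wild-type replicates 1, 2 and 3. The order of the 6 libraries was the same as for Hsph1, from wild-type replicate 3 down to knockout replicate 1, and knockout replicate 3 again lay above wild-type replicate 2. The mean was 10.5 ± 1.93 FPKM in knockout and 15.2 ± 3.30 FPKM in wild-type kidney (SD, n = 3 each). Its log2 fold change came to -0.49, with standard error 0.174 and 95% interval -0.89 to -0.09 (limma adjusted p = 0.941, exact permutation p = 0.2). Its log2 fold change was -0.21 without knockout replicate 1 and wild-type replicate 3 together. As these were its lowest and highest libraries, the smaller difference follows from the choice.

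In the remaining 5 BAG genes the groups overlapped, and the 95% interval of each fold change held 0. Bag1, whose product has a ubiquitin-like domain that docks HSC70 at the proteasome, lies on chromosome 4 (40936398 to 40948294, minus strand). It stood at 132, 165 and 136 FPKM in knockout replicates 1, 2 and 3, against 147, 146 and 159 FPKM in wild-type replicates 1, 2 and 3. The knockout group held both the highest and the lowest value, and the log2 fold change was -0.07 (standard error 0.108).

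Bag2 encodes an exchange factor that also inhibits CHIP (chromosome 1, 33745484 to 33757750, minus strand). It stood at 7.09, 7.55 and 8.26 FPKM in knockout replicates 1, 2 and 3, against 7.99, 7.89 and 6.36 FPKM in wild-type replicates 1, 2 and 3. Wild-type replicate 3, the highest library for Hsph1, Bag3 and Stub1, was the lowest for Bag2, and the log2 fold change was 0.04 (standard error 0.107). Without wild-type replicate 3 the log2 fold change of Bag2 was -0.053.

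Bag4 encodes SODD, which also binds death domains of tumour necrosis factor receptors (chromosome 8, 25764538 to 25785209, minus strand). It stood at 6.60, 6.38 and 7.69 FPKM in knockout replicates 1, 2 and 3, against 7.82, 7.59 and 6.73 FPKM in wild-type replicates 1, 2 and 3. The groups overlapped over most of their range, and the log2 fold change was -0.09 (standard error 0.0986). In GENCODE M21, 14.8% of the Bag4 exon bases overlap the opposite-strand gene Gm17484, which averaged 0.187 FPKM over the 6 libraries.

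Bag5 encodes a protein with repeated BAG domains that also inhibits the ubiquitin ligase Parkin (chromosome 12, 111709488 to 111713256, minus strand). It stood at 9.54, 10.4 and 9.48 FPKM in knockout replicates 1, 2 and 3, against 11.5, 10.2 and 10.1 FPKM in wild-type replicates 1, 2 and 3. Knockout replicate 2 lay above wild-type replicates 2 and 3, and the log2 fold change was -0.10 (standard error 0.0864).

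Bag6 encodes the scaffold of a complex that guards tail-anchored membrane proteins on their way to the endoplasmic reticulum, and its BAG domain is atypical (chromosome 17, 35135156 to 35147321, plus strand). It stood at 32.5, 32.6 and 35.2 FPKM in knockout replicates 1, 2 and 3, against 32.5, 34.6 and 34.9 FPKM in wild-type replicates 1, 2 and 3. Its highest library was only 1.08 times its lowest, the narrowest spread among the 9 members. The log2 fold change was -0.02 (standard error 0.0811), and it was above 0, at 0.020, 0.027 and 0.0048, with library sums, medians or quantiles equalised.

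Hspbp1 encodes an exchange factor that can also hold back the ligase activity of CHIP (chromosome 7, 4660515 to 4685188, minus strand). It stood at 13.6, 14.5 and 13.1 FPKM in knockout replicates 1, 2 and 3, against 14.6, 14.1 and 14.3 FPKM in wild-type replicates 1, 2 and 3. Knockout replicate 2 lay within the wild-type range and the other knockout libraries just below it, with a log2 fold change of -0.06 (standard error 0.0795).

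Stub1 lies on chromosome 17 (25830634 to 25832919, minus strand). It stood at 44.1, 51.9 and 42.4 FPKM in knockout replicates 1, 2 and 3, against 46.0, 45.6 and 55.6 FPKM in wild-type replicates 1, 2 and 3. A single library of each group, knockout replicate 2 and wild-type replicate 3, stood above the rest. The log2 fold change was -0.09 (standard error 0.115), and it was 0.0045 without wild-type replicate 3. In GENCODE M21, 42.3% of the Stub1 exon bases overlap exons of Jmjd8 on the opposite strand. The levels of Jmjd8 were 41.7, 41.0 and 38.0 FPKM in knockout replicates 1, 2 and 3, against 42.5, 40.04 and 42.6 FPKM in wild-type replicates 1, 2 and 3. No source used here tells whether counting used strand, so reads of this pair may not have been told apart.

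**Figure D2:**
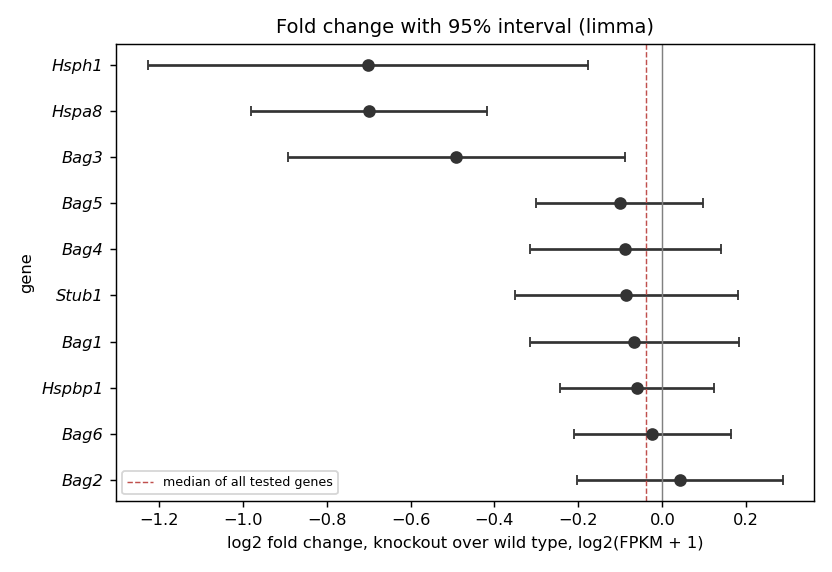
Log2 fold change of Hspa8 and the 9 members, knockout over wild-type, on the log2(FPKM + 1) scale (horizontal axis), with points for the estimate and bars for the 95% interval of limma, not adjusted for the number of genes. The dashed line is the median of all 12174 tested genes. The intervals of Hsph1, Bag3 and Hspa8 lie below 0, while those of the other 7 members cross 0 and span -0.35 to 0.29 between them.

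The size of a difference that these data leave room for was similar among the 7 members near 0. Their log2 fold changes ran from -0.10 to 0.04, and their 95% intervals reached no lower than -0.35 (Stub1) and no higher than 0.29 (Bag2). Their adjusted p was 0.998 in each case (limma over 12174 genes). A p that misses the threshold does not show that the levels were the same.

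By level per length, Bag1 came first in all 6 libraries, with a mean of 148 FPKM over the 6. Hsph1 (51.8 FPKM), Stub1 (47.6 FPKM) and Bag6 (33.7 FPKM) followed, then Hspbp1 (14.03 FPKM), Bag3 (12.8 FPKM), Bag5 (10.2 FPKM), Bag2 (7.52 FPKM) and Bag4 (7.13 FPKM). The ranges of Hsph1 and Stub1 overlapped, with Hsph1 above Stub1 in 4 of 6 libraries. Hspbp1 and Bag3, Bag3 and Bag5, and Bag2 and Bag4 also overlapped, so their order is not fixed beyond the spread, while the other neighbours in this order did not overlap. Bag1 supplied 67.8% of the summed FPKM of the 6 BAG genes in knockout and 66.9% in wild-type kidney. The 8 exchange factors together summed to 240, 284 and 272 FPKM in knockout replicates 1, 2 and 3, against 295, 282 and 335 FPKM in wild-type replicates 1, 2 and 3. Hsph1 made up 14.7% of that sum in knockout and 21.0% in wild-type kidney (means of 3 libraries). Bag6, whose BAG domain is atypical, is counted in it, with 12.6% in knockout and 11.2% in wild-type kidney.

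Relative to Hspa8 in the same library, 7 members stood higher in every knockout library than in any wild-type library. The ratio to Hspa8 is free of library scaling, and the lower Hspa8 of the knockout is part of it. The 8 exchange factors together came to 37.0%, 40.7% and 34.9% of Hspa8 FPKM in knockout replicates 1, 2 and 3, against 27.9%, 25.8% and 25.4% in wild-type replicates 1, 2 and 3. The groups lay apart, and the exact two-sided permutation test gave p = 0.1, the smallest it allows. For Bag1, Bag2, Bag4, Bag5, Bag6, Hspbp1 and Stub1 the 3 knockout ratios lay above the 3 wild-type ratios, by log2 differences of 0.59 to 0.75 (exact permutation p = 0.1 each, 0.129 adjusted over the 9 members). This was also so for 84.2% of the 12171 tested genes with a value above 0 in every library, so the count is not particular to these members. Stub1 came to 6.78%, 7.42% and 5.44% of Hspa8 in knockout replicates 1, 2 and 3, against 4.35%, 4.18% and 4.21% in wild-type replicates 1, 2 and 3.

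For Hsph1 and Bag3 the ratios of the groups overlapped, and whether they differ from the other members in this was not tested. Hsph1 came to 4.64%, 5.28% and 6.45% of Hspa8 in knockout replicates 1, 2 and 3, against 5.53%, 4.57% and 6.45% in wild-type replicates 1, 2 and 3. The log2 difference was -0.02 (exact permutation p = 0.9, also 0.9 adjusted over the 9 members), and it was 0.21 without knockout replicate 1 and wild-type replicate 3. Those libraries held the lowest knockout and the highest wild-type ratio, so leaving them out must raise the difference. Bag3 came to 1.29%, 1.55% and 1.56% of Hspa8 in knockout replicates 1, 2 and 3, against 1.43%, 1.09% and 1.40% in wild-type replicates 1, 2 and 3, with a log2 difference of 0.17 (exact permutation p = 0.5, 0.563 adjusted).

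**Figure D3:**
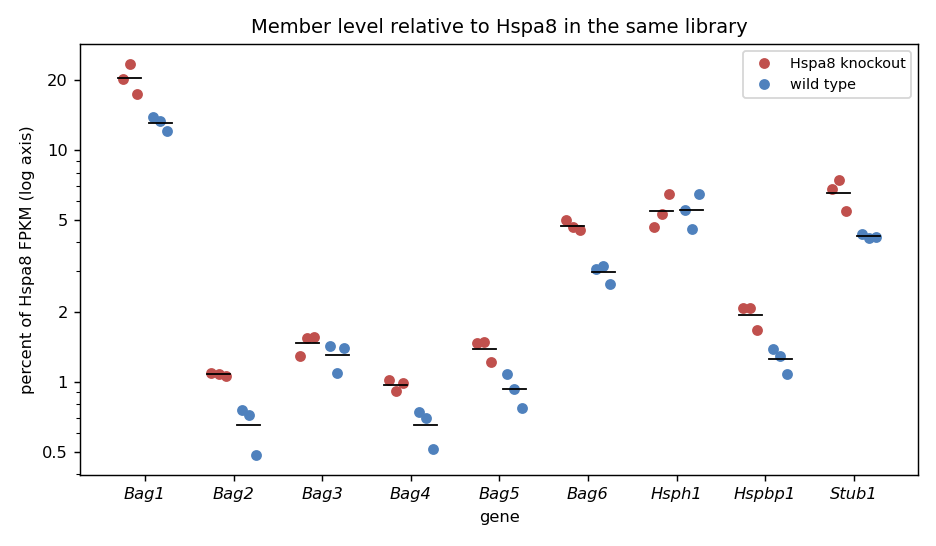
Level of each member as a percentage of Hspa8 FPKM in the same library (vertical log axis), with knockout libraries in red on the left and wild-type libraries in blue on the right of each gene, and lines at the group means. The knockout points lie above the wild-type points for 7 members, whereas for Hsph1 (4.64% to 6.45% in knockout, 4.57% to 6.45% in wild-type) and Bag3 they overlap.

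The mean level of other heat shock genes was lowest and highest in the same libraries as Hsph1 and Bag3. A list of 24 HSF1 target genes was used that holds no member, but 12 of the 24 also stand in the other lists described here, so these lists are not independent of it. The shared genes are Hspa1a and Hspa1b (HSP70 chaperones), Dnaja1, Dnajb1, Hsp90aa1, Hsp90ab1 and Stip1 (linkers and HSP40 partners), Hspb1, Hspb8 and Cryab (BAG3 partners), Hspa4l (exchange factors) and Hsf2 (heat shock factors). Of the 24 genes 21 had a log2 fold change below 0, against 64.9% of all tested genes, with a median of -0.25 beside -0.04 over all. None passed over all genes, and 5 were lower and 0 higher at an unadjusted limma p under 0.05, against 4.21% of all tested genes in the lower direction. The median was -0.11 when wild-type replicate 3 was left out. It was -0.061 when knockout replicate 1 was left out as well, with 14 of 24 below 0. Over all tested genes 63.4% were then below 0, with a median of -0.039. The list mean was highest and lowest in these libraries, so leaving them out favours a smaller difference. Relative to the mean of the 6 libraries, the mean log2 value of the list was -0.45, 0.015 and -0.083 in knockout replicates 1, 2 and 3, against 0.0076, -0.058 and 0.57 in wild-type replicates 1, 2 and 3. Hsph1 on the same scale was at -0.68, -0.40 and 0.034 in knockout replicates 1, 2 and 3, against 0.25, 0.024 and 0.78 in wild-type replicates 1, 2 and 3. The ends were thus the same libraries, while in knockout replicate 2 Hsph1 was low and the list was at its mean. Hspa1a, an inducible HSP70 gene with a near-identical copy in Hspa1b, stood at 3.15, 36.6 and 27.8 FPKM in knockout replicates 1, 2 and 3, against 17.6, 20.8 and 115 FPKM in wild-type replicates 1, 2 and 3. Its lowest and highest libraries were knockout replicate 1 and wild-type replicate 3, and Hspa1b stood at 3.34 and 129 FPKM in these. Both genes are in the list, so they have a part in its low and high mean there.

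**Figure D4:**
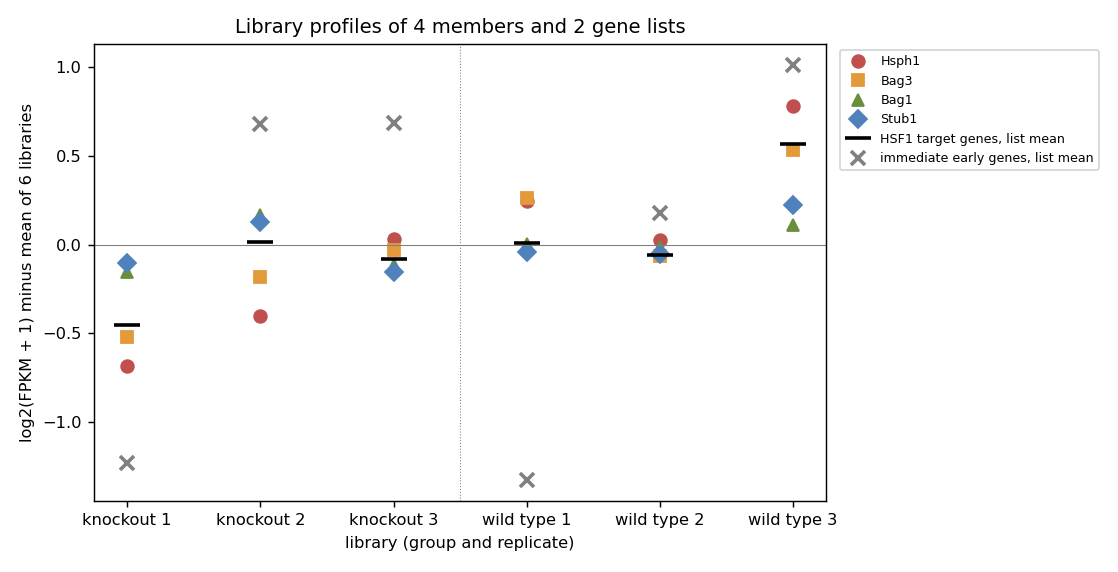
Library profiles as log2(FPKM + 1) minus the mean of the 6 libraries (vertical axis) for Hsph1, Bag3, Bag1 and Stub1 and for the means of 24 HSF1 target genes and of 14 tested immediate early genes, with knockout libraries on the left and wild-type libraries on the right. Hsph1, Bag3 and the HSF1 targets are lowest in knockout replicate 1 and highest in wild-type replicate 3. The immediate early genes are also highest in wild-type replicate 3 (1.02), and are low in knockout replicate 1 (-1.23) and wild-type replicate 1 (-1.33).

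The gene closest in profile to Hsph1 outside the members, by the mean absolute gap between centred log2(FPKM + 1) values over 6 libraries, was Cdkn1a (gap 0.139), followed by Ddit3 (0.143), Dnajb4 (0.149), Ahsa2 (0.158) and Ccdc117 (0.161). Bag3 lay closer to Hsph1 than any of these, at 0.133. For Bag3 the nearest were Dnaja1 (0.0758), Cables1 (0.0940), Cxcl14 (0.0945), Klf6 (0.103) and Phlda1 (0.104). Dnajb4 and Dnaja1 encode HSP40 proteins, and Ahsa2 is related to a co-chaperone of HSP90. These gaps are descriptions over 6 libraries and carry no test.

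The immediate early genes, which respond within minutes to handling or injury, had another order of libraries. Their 15 members summed to 99.7, 375 and 438 FPKM in knockout replicates 1, 2 and 3, against 89.5, 298 and 530 FPKM in wild-type replicates 1, 2 and 3. Wild-type replicate 1 had the lowest sum, knockout replicate 1 the next lowest and wild-type replicate 3 the highest. Hsph1 and Bag3 were lowest in knockout replicate 1, highest in wild-type replicate 3 and second highest in wild-type replicate 1. Whether handling has a part in these levels was not tested. Of 14 tested, 0 passed, and the median log2 fold change was 0.07. The sign of that median depended on single libraries. Leaving out knockout replicate 1, 2 or 3 gave 0.66, -0.26 and -0.22, and leaving out wild-type replicate 1, 2 or 3 gave -0.59, 0.20 and 0.60. Klf6 (-0.30) and Fosb (0.69) had the smallest unadjusted p.

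The HSP40 partners and linkers that deliver clients to HSC70 or pass them to HSP90 had 16 of 20 genes below 0, against 64.9% of all tested genes, a median of -0.09 on the log2 scale, and 0 that passed. With library sums or medians equalised 12 of 20 were below 0, with medians of -0.045 and -0.036, and without knockout replicate 2 the median was -0.135. Dnajb1, the HSP40 protein that works with HSP110, stood at 10.1, 15.3 and 15.5 FPKM in knockout replicates 1, 2 and 3, against 21.0, 19.9 and 43.5 FPKM in wild-type replicates 1, 2 and 3. Its groups did not overlap, as for 10.6% of all tested genes, with a log2 fold change of -0.93 (standard error 0.291, limma adjusted p = 0.914). It had the smallest unadjusted p of this list, and naming a gene for that favours groups that lie apart. Dnaja1 averaged 91.5 ± 11.2 FPKM in knockout and 122.9 ± 20.8 FPKM in wild-type kidney (SD, n = 3 each; log2 fold change -0.42). In the HSP70 chaperone list, which includes Hspa8 itself, 8 of 11 genes were below 0, against 64.9% of all tested genes, and 0 passed. With library sums or medians equalised 7 and 6 of 11 were below 0. The median log2 fold change was -0.17. That median was -0.27 with a pseudocount of 0.1, -0.115 with quantiles equalised and -0.060 without knockout replicate 1 and wild-type replicate 3. Hspa8 itself and Hspa5, the HSP70 of the endoplasmic reticulum (189 ± 1.17 FPKM in knockout and 246 ± 54.3 FPKM in wild-type kidney), had the smallest unadjusted p.

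The exchange factors outside the members stood near 0. Of Hspa4 and Hspa4l (cytosolic HSP110 relatives), Hyou1 and Sil1 (endoplasmic reticulum) and Grpel1 and Grpel2 (mitochondria), 4 of 6 were above 0 with a median log2 fold change of 0.03, and 0 passed. Leaving out knockout replicate 1 or 3 gave medians of 0.045 and -0.021, and leaving out wild-type replicate 1, 2 or 3 gave 0.052, -0.0011 and 0.00059. With library sums, medians or quantiles equalised it was 0.069, 0.077 and 0.059. They summed to 141, 141 and 146 FPKM in knockout replicates 1, 2 and 3, against 148, 140 and 143 FPKM in wild-type replicates 1, 2 and 3. Hyou1 had a log2 fold change of -0.17 and Grpel2 of 0.14, the smallest unadjusted p of this list.

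The partners of single members did not pass either. In the BAG6 complex list, which covers insertion and disposal of membrane proteins, 8 of 11 tested genes were below 0, against 64.9% of all tested genes, with a median of -0.04, and 0 passed. The direction turned with library sums or medians equalised (5 of 11 below 0, medians of 0.0023 and 0.0099). It also turned without wild-type replicate 1 (5 of 11 below 0 against 58.7% of all tested genes, median 0.0072). The median was lower without knockout replicate 2 (-0.076), wild-type replicate 2 (-0.062) or wild-type replicate 3 (-0.063). Syvn1, a ubiquitin ligase of the endoplasmic reticulum, averaged 11.8 ± 0.677 FPKM in knockout and 17.01 ± 3.27 FPKM in wild-type kidney (SD, n = 3 each). Its groups did not overlap, as for 10.6% of all tested genes, with a log2 fold change of -0.48 (limma adjusted p = 0.866). It was named for the smallest unadjusted p of its list, which favours groups that lie apart. Get3, the ATPase that carries tail-anchored proteins, had a log2 fold change of -0.14. Among the ubiquitin-conjugating enzymes and partners of CHIP, 11 of 13 were below 0, against 64.9% of all tested genes, with a median of -0.05, and 0 passed. Without wild-type replicate 1, 4 of 13 were below 0 (median 0.0063), against 58.7% of all tested genes. Without knockout replicate 2 the median was -0.011. With library sums or medians equalised 8 and 7 of 13 were below 0. Ube2d2a averaged 30.7 ± 1.91 FPKM in knockout and 33.8 ± 0.988 FPKM in wild-type kidney, and Ube2d1 13.7 ± 0.762 FPKM in knockout and 14.8 ± 1.63 FPKM in wild-type kidney (SD, n = 3 each). Among the autophagy partners of BAG3, 15 of 18 tested were below 0, against 64.9% of all tested genes, with a median of -0.08, and 0 passed. With library sums or medians equalised 13 and 11 of 18 were below 0, with medians of -0.036 and -0.028. Yap1, which BAG3 can free by binding its inhibitors, averaged 17.1 ± 1.56 FPKM in knockout and 20.8 ± 0.429 FPKM in wild-type kidney, and Flna, a filamin of the actin cytoskeleton, 9.16 ± 0.228 FPKM in knockout and 11.5 ± 1.75 FPKM in wild-type kidney (SD, n = 3 each).

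The heat shock factors were measured as well. Hsf1 stood at 10.4, 11.59 and 10.9 FPKM in knockout replicates 1, 2 and 3, against 11.63, 11.8 and 15.2 FPKM in wild-type replicates 1, 2 and 3, with a log2 fold change of -0.21 (standard error 0.113, limma adjusted p = 0.973). The groups were apart by a narrow margin, as for 10.6% of all tested genes, and wild-type replicate 3 was again the highest. Hsf1 had the smallest unadjusted p of its list. The tested genes of this list were Hsf1, Hsf2, Hsbp1 and Hsf2bp, while Hsf4 and Hsf5 averaged under 1 FPKM. Of the 4 tested, 3 were below 0, against 64.9% of all tested genes, and 0 passed. With library sums or medians equalised 2 of 4 were below 0. Hsf2bp, which like Hsbp1 encodes a binding protein of heat shock factors and not a factor, had a log2 fold change of 0.31. Within the HSF1 target list, Chordc1, an HSP90 co-chaperone, averaged 20.8 ± 2.39 FPKM in knockout and 30.7 ± 3.65 FPKM in wild-type kidney, and Ahsa2 11.0 ± 1.75 FPKM in knockout and 18.7 ± 5.45 FPKM in wild-type kidney (SD, n = 3 each).

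Markers of several other cell types also stood at different levels in these libraries. The 4 endothelial markers summed to 40.4 to 50.2 FPKM in knockout and 51.9 to 68.7 FPKM in wild-type libraries, and the 4 fibroblast markers to 25.3 to 31.1 FPKM in knockout and 33.4 to 44.9 FPKM in wild-type libraries. The 4 adipocyte markers summed to 32.5 to 43.7 FPKM in knockout and 45.1 to 68.4 FPKM in wild-type libraries. Most of that sum was Car3, at 40.4, 30.9 and 31.4 FPKM in knockout and 43.6, 43.7 and 50.4 FPKM in wild-type replicates 1, 2 and 3. Adipoq, Plin1 and Cfd overlapped between the groups. Without wild-type replicate 3 the median log2 fold change of the 2 tested adipocyte markers was -0.00014. The sums of these 3 lists did not overlap between the groups and were highest in wild-type replicate 3, the library in which Hsph1 and Bag3 were highest. Among tested genes, groups lay apart for 2 of 4 endothelial, 2 of 4 fibroblast and 1 of 2 adipocyte markers, against 10.6% of all tested. The 4 podocyte markers, all with a log2 fold change below 0 (median -0.30), summed to 48.0 to 70.5 FPKM in knockout and 62.5 to 89.3 FPKM in wild-type libraries, overlapping and again highest in wild-type replicate 3. The 5 red cell markers summed to 69.4 to 545 FPKM in knockout and 43.3 to 53.4 FPKM in wild-type libraries. Groups lay apart for 4 of 4 tested red cell markers, all higher in the knockout, with a median log2 fold change of 2.29. Muscle, a tissue rich in BAG3, was low: the 5 skeletal muscle markers summed to 6.39 to 7.32 FPKM in knockout and 4.02 to 16.8 FPKM in wild-type libraries, and the 4 smooth muscle markers to 19.2 to 22.3 FPKM in knockout and 16.9 to 39.5 FPKM in wild-type libraries, each highest in wild-type replicate 3. None of these markers was at 0 in any library, and none passed the limma test. Their part in the values of Hsph1 and Bag3 was not tested.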

How the data were processed

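The deposited values are FPKM, 1 per gene in each library. Per the submitters' processing notes the builds are GRCm38 and mm10; the sources used here name no aligner, quantifier, annotation or strand setting. Per the labels' protocols, RNA came from a column kit and libraries from a SMARTer kit. Knockout columns carry A8 and were matched to titles by that end of HSPA8 and their number. For genes with a mean of at least 1 FPKM, log2(FPKM + 1) entered limma 3.58.1 (R 4.3.3; group as the only term, trended variance, two-sided, Benjamini-Hochberg over 12174 genes, threshold 0.05); this scale understates changes of low genes. The test was run on simulated data with noise drawn for each gene on its own. Such data lack the differences between libraries that many genes share, so the power here is not known. Single values used exact permutation tests. Depth is unknown, so no counting interval is given. Coordinates and promoters are from RefSeq GRCm38.p6 and exon overlaps from GENCODE M21. Named genes were the members, of each pathway list those that passed or the 2 with the smallest p, and the 5 nearest profiles of the 2 members of widest range. Cell type markers are given as sums, and genes named from other lists for overlap or copies were chosen after their values were seen. Members, lists and tests were chosen with earlier results of these data known. Figures used matplotlib 3.10.9. Alternatives were other pseudocounts, filters, scalings and variance models, a replicate block, and leaving out libraries.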

Additional observations from a re-analysis of the deposited data

How the results depend on the processing

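In the 16 alternatives 0 members passed over all tested genes. Hsph1 and Bag3 were below 0 in all 16, at log2 fold changes of -0.89 to -0.32 and -0.64 to -0.21, and Bag4, Bag5 and Hspbp1 were also below 0 in all 16. The members' median ran from -0.139 to -0.0356, and the median log2 ratio to Hspa8 from 0.481 to 0.709 over 8 alternatives. Over all genes the count called, 0 with all libraries, ran from 0 to 5 when a library was left out (from 0 to 4 in the fixed lists). Without knockout replicate 2, 5 genes passed, all globin genes that were higher in the knockout. Small log2 fold changes crossed 0. With 1 library left out, Bag1 ran from -0.166 to -0.00709, Bag2 from -0.053 to 0.0922, Bag6 from -0.0608 to -0.00480 and Stub1 from -0.172 to 0.0045. Without knockout replicate 1 and wild-type replicate 3, Bag1 was 0.033, Bag2 -0.0065, Bag6 0.014 and Stub1 0.034. Bag2 was -0.011 without knockout replicate 3 and -0.053 without wild-type replicate 3, where Stub1 was 0.0045. Bag6 was 0.020, 0.027 and 0.0048 with sums, medians and quantiles equalised. The cause was not tested. With library sums or medians equalised 50.3% and 45.9% of all genes were below 0, against 64.9%. The unadjusted p of Hsph1 was 0.0549 without knockout replicate 1, and that of Bag3 was 0.0828 when knockout replicate 1 was left out, 0.0511 for wild-type replicate 1 and 0.0694 for wild-type replicate 3 (limma).

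The replicate number as a block called 0 genes and left Hsph1 at -0.70 (limma adjusted p = 0.759). Deviations of same-numbered libraries correlated at 0.307, -0.215 and -0.321 across genes for replicates 1, 2 and 3. Knockout replicate 2 correlated best with wild-type replicate 3 (0.550), and knockout replicate 1 with wild-type replicate 1. The deviations were taken within each group of 3, so these correlations cannot tell whether same-numbered samples were paired. The labels do not say. Unknown depth and 3 libraries a group limit the small differences.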
